A study of Homo sapiens with 12 samples.

Results

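The matrix metalloproteinases MMP1, MMP2, MMP9, MMP11, MMP14 and MMP15 and their inhibitors TIMP1, TIMP2, TIMP3 and TIMP4 were examined in Rh30 cells, a human cell line from alveolar rhabdomyosarcoma, a childhood tumor of the skeletal muscle lineage. Every gene probe that carried 1 of these 10 symbols in the array files was taken, which gave 11 of 41000 gene probes and 10 of 30238 gene names. MMP15 had 2 probes and the other 9 genes had 1 each.

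The study compared 3 cultures on Agilent oligo microarrays of the whole human genome, each hybridized with RNA of 2 cultures, 1 labeled with Cy3 and the other with Cy5. WT is the untransfected parental Rh30 line, which carries the PAX3-FKHR fusion gene (PAX3-FOXO1 in the labels). CON is 1 stable Rh30 clone that carries a non-targeting shRNA vector, and KD1 is 1 stable Rh30 clone that carries an shRNA against PAX3-FKHR. The medium of the clones, but not that of WT, held 1 μg/ml puromycin, RNA was taken 24 h after plating, and 500 ng of it was labeled. Each of the comparisons KD1 with CON, KD1 with WT and WT with CON, written below as KD1/CON, KD1/WT and WT/CON, had 2 biological replicates, each read on a dye-swap pair, so that 6 RNA extracts lay on 12 arrays. Each extract was on 4 arrays and each culture was read on 8, and the comparisons share extracts. With 1 clone of each kind, the targeting shRNA and the clone cannot be told apart in KD1/CON, and in the comparisons with WT neither can the vector and puromycin.

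Matrix metalloproteinases are zinc-dependent enzymes that cut collagens and other proteins of the extracellular matrix. Most are secreted as inactive precursors, whereas the membrane-type enzymes MMP14 and MMP15 are anchored at the cell surface. TIMPs are small secreted proteins that bind the active site and inhibit these enzymes. MMP14 together with TIMP2 forms the surface complex on which the precursor of MMP2 is activated. In tumors, the family is known for its part in matrix breakdown during cell migration and invasion. The study asked about PAX3-FKHR and cell motility.

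Each probe is an oligonucleotide of 60 bases. The positions below are those in the array files, on genome build NCBI36, and no annotation of that build was used, so exons and untranslated regions are not assigned. The probes of MMP2 and TIMP1 are given in full, because MMP2 had the largest ratios of the family and TIMP1 lay on 1 side of CON on every array. For MMP9, MMP14, MMP15 and TIMP3 the first 30 bases are given. MMP9 was read on 10 spots per array, MMP14 and TIMP3 had replicates that lay far apart, and the MMP15 probes allow a gene to be read at 2 places.
MMP2 (chr16:54096763-54096822, plus strand): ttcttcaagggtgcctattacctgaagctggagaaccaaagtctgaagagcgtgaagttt
TIMP1 (chrX:47329610-47329669, plus strand): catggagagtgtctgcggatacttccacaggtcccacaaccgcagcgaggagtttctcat
MMP9 (chr20:44078528-44078587, plus strand): tggaggtgggctgggccctctcttctcacc
MMP14 (chr14:22385631-22385690, plus strand): ggactgccaagccaccctaagaccttggga
MMP15, brighter probe (chr16:56637985-56638044, plus strand): tccttcctcttttccttcccaaagcaagca
MMP15, dimmer probe (chr16:56637027-56637086, plus strand): gaccatttgtttctgtttccccgactgggg
TIMP3 (chr22:31588540-31588599, plus strand): caagatggcacccaagtgtttggcttctgg
The remaining probes lie at chr11:102165907-102165966 on the minus strand for MMP1, at chr22:22456273-22456332 on the plus strand for MMP11, at chr17:74363249-74363308 on the minus strand for TIMP2 and at chr3:12169728-12169787 on the minus strand for TIMP4. The probes of MMP1, MMP2 and MMP9 were spotted 10 times on each array, and those of the other genes once.

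All values below are log2 ratios of the processed signals, with the first culture of a comparison over the second. The spots of a probe and then the dye-swap pair of a replicate were averaged, and values are given as mean ± SD over n = 2 replicates. Across 21870 probes, the 2 replicate values correlated with 0.697 in KD1/CON, 0.370 in KD1/WT and 0.460 in WT/CON. The arrays of a dye-swap pair correlated with 0.840 to 0.888, except those of replicate 2 of KD1/WT, with 0.448. The replicates of the KD1 comparisons were on separate slides, and both replicates of WT/CON were on 1 slide. The brightest probe of FOXO1 gave −0.26 and −0.58 in the replicates of KD1/CON and −0.79 and −0.41 in those of KD1/WT. The brightest probe of PAX3 gave −0.39 and −0.46, and −0.45 and −0.33. A less bright PAX3 probe gave 0.16 and −0.33, and 0.26 and −0.15. The remaining probes of both genes were below 0 in both replicates of both comparisons. These probes also read the genes outside the fusion, and no FOXO1 or PAX3 probe passed the test described next. The study itself reported less PAX3-FKHR mRNA and protein in KD1 than in CON, by real-time RT-PCR and Western blot. Of 10 markers of skeletal muscle cells, 9 were well above background on all 8 arrays of every culture.

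To enter the test, a probe needed a background-subtracted signal past a limit, in 1 channel or both, on every array of a comparison. The limit was the level that 99% of the negative control spots of that channel stayed under. It ran from 1.81 to 40.7 over the arrays and channels, and was highest on an array of replicate 1 of KD1/CON. This left 6 of the 11 probes in KD1/CON and 8 in each of the other comparisons. With limma and Benjamini-Hochberg adjustment over all tested probes, 0 of 6 member probes had an adjusted p under 0.05 in KD1/CON, where 1.79% of all tested probes did. In KD1/WT, 0 of 8 passed, against 1.05% of all tested probes, and in WT/CON 1 of 8 passed, against 1.37% of all tested probes. The probe that passed was that of MMP2, which was higher in WT and, with CON near background, entered the test through its WT signal, so this count is a description. At an unadjusted p under 0.05, limma gave 0, 1 and 1 member probes in KD1/CON, KD1/WT and WT/CON, each of them MMP2, where 17.2%, 17.2% and 16.5% of all tested probes had one. The median ratio of the tested members was 0.09 in KD1/CON, −0.17 in KD1/WT and 0.26 in WT/CON, beside −0.01, 0.01 and −0.03 over all tested probes. The 2 replicate values had opposite signs for 4, 6 and 5 of the 11 probes, tested or not. The share over all probes is not given here, so these counts say nothing particular about the family.

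Many probes lay on the same side of 0 on all 4 arrays of a comparison. In KD1/CON, TIMP1 of the 6 tested members was higher on all 4 arrays, as were 24.9% of all tested probes, and none was lower on all 4, as 26.3% were. In KD1/WT, MMP11 was higher on all 4 arrays, as were 16.2% of all tested probes, and MMP2 and MMP9 were lower, as were 16%. In WT/CON, MMP2 and TIMP1 were higher on all 4 arrays, as were 20.1% of all tested probes, and TIMP3 was lower, as were 23.3%. The study's own selection, which its methods give for KD1, asked for a mean change of at least 2-fold in both comparisons of the culture, in the same direction on every array, with a signal criterion in at least 1 channel. It was applied here to WT and CON in the same way, with the limit given above as the signal criterion. By this rule 0 members were selected for KD1, where 1.38% of the probes it could judge were, and 0 for CON, where 1.25% were. For WT, 1 member was selected, MMP2 as higher, beside 1.18% of the probes the rule could judge. In WT/CON, MMP2 met the signal criterion through its WT signal, with CON near background, so this count is a description too. For KD1 and for CON the rule could not judge MMP2, which was not past the limit on every array.

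**Figure D1:**
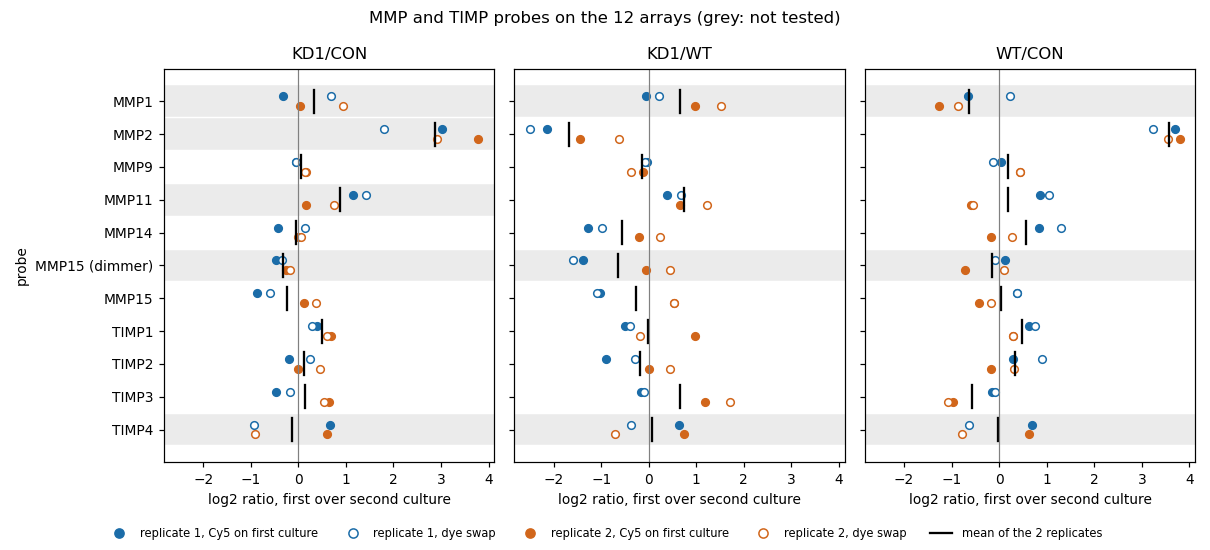
Log2 ratio of each MMP and TIMP probe (vertical axis) on every array of the 3 comparisons, with the first culture over the second. Points are arrays, colored by replicate and open where the dyes were swapped, black lines are means of the 2 replicates, and grey rows were not tested. MMP2 lies far from 0 in every panel, with means of 2.88, −1.68 and 3.57, while the means of the other probes lie between −0.65 and 0.87.

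MMP2, a secreted enzyme that cuts denatured collagen and basement membrane collagen and is also called gelatinase A, was highest in WT, lower in KD1 and lowest in CON. Its processed signal was 104.8 to 243 in WT with a median of 158 over the 8 arrays. In KD1 it was 14.6 to 89.1 with a median of 40.9, and in CON 2.13 to 18.9 with a median of 6.98. The WT signals did not overlap those of the clones, while the lowest KD1 signals lay below the highest CON signal, on other arrays. The probe stood well above background on 8 of 8 WT arrays, 7 of 8 KD1 arrays and 1 of 8 CON arrays, where an array counts if most of the spots do. By single spots, 77 of 77 WT readings, 70 of 76 KD1 readings and 9 of 77 CON readings were well above background. In bulk RNA, fewer cells that express the gene and less RNA per cell cannot be told apart.

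In WT/CON, the MMP2 ratio was 3.69 and 3.23 on the arrays of replicate 1 and 3.81 and 3.55 on those of replicate 2. The mean was 3.57 ± 0.15, with a 95% interval of 2.84 to 4.30 and an adjusted p of 0.00338 by limma. All 4 arrays thus gave a ratio of similar size, and 0.778% of all tested probes passed the test in this direction. CON was well above background on 1 of these 4 arrays, so the probe was tested because WT was high, and with a filter that asks for both channels it was not tested. The interval and adjusted p thus rest on CON signals near background and are a description. With CON set on each of its 8 arrays at no less than the lowest signal among probes well above background, WT was 9.53-fold and KD1 2.49-fold above it. These folds rest on that floor and are not measured against a CON signal.

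In KD1/CON, the MMP2 ratio was 3.02 and 1.81 in replicate 1 and 3.78 and 2.91 in replicate 2. The mean was 2.88 ± 0.66, with KD1 higher on all 4 arrays, but CON was well above background on 0 of them, so no fold is drawn from this mean. This comparison was not tested, because both arrays of replicate 1 were below the limit of the negative controls. That limit was high there, at 40.6 and 27.7 in Cy3 and 40.7 and 15.9 in Cy5. On the arrays of replicate 2 it was 4.19 and 3.56 in Cy3 and 3.52 and 3.49 in Cy5. KD1 was well above background on the dye-swap array of replicate 1 all the same. With every probe tested whatever its signal, the adjusted p by limma was 0.0201, which rests on those CON signals.

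In KD1/WT, the MMP2 ratio was −2.15 and −2.51 in replicate 1 and −1.45 and −0.62 in replicate 2. The mean was −1.68 ± 0.91, or 3.20-fold lower in KD1, with a 95% interval of −2.41 to −0.95 and an adjusted p of 0.0624 by limma. The KD1 signal of the replicates was 14.6 to 33.2 in replicate 1 and 48.7 to 89.1 in replicate 2 on their 4 arrays each, with no overlap. Without replicate 2, whose dye-swap arrays correlated least, the ratio was −2.33 with an adjusted p of 0.116, and without replicate 1 it was −1.03 with an adjusted p of 0.263.

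**Figure D2:**
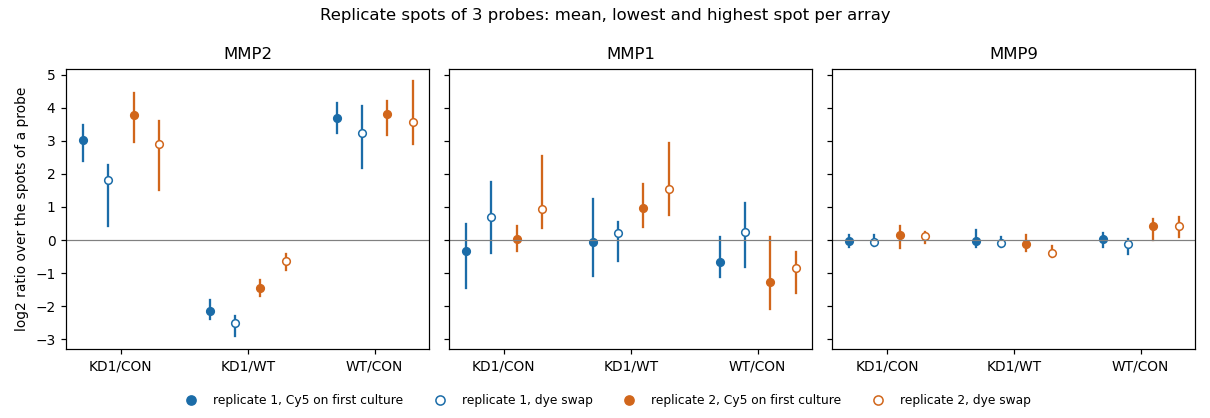
Log2 ratios of the probes spotted 10 times per array, for MMP2, MMP1 and MMP9. Points are means over the spots of 1 array, lines run from the lowest to the highest spot, colors mark replicates and open points mark dye swaps. Every MMP2 spot lay on the same side of 0 within each comparison, while the MMP1 spots lay on both sides.

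Because each replicate was compared in all 3 directions, the WT/CON ratio could also be obtained from the KD1 arrays. For MMP2 the direct values were 3.46 and 3.68, and those through KD1 were 4.74 and 4.38. The differences of 1.28 and 0.70 were larger than the 95th percentile over 21870 probes, which was 0.222 in replicate 1 and 0.264 in replicate 2. WT lay above CON by both routes, but the sign through KD1 follows from those of KD1/CON and KD1/WT, so it is no separate support. The size of the MMP2 ratio against CON, which lay near background, is known less well than its sign. For the other tested member probes the same difference lay between −0.21 and 0.16.

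The call of MMP2 in WT/CON depended on how signals near background were treated. With normexp background correction and loess the ratio was 0.85 with an adjusted p of 0.131, and with a common floor for both channels it was 2.70 with an adjusted p of 0.0634, whereas over all alternatives the adjusted p ran from 9.27e-15 to 0.224. Leaving out replicate 1 or replicate 2 gave ratios of 3.68 and 3.46 with adjusted p of 0.223 and 0.224.

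The neighbors of MMP2 on chromosome 16 were read beside it. Within 1 Mb on either side, 34 probes of 22 gene names had a position, of which 11, 18 and 19 were tested in KD1/CON, KD1/WT and WT/CON, and 1, 0 and 2 passed. All that passed were probes of IRX6, an Iroquois homeobox gene at −175 kb on the side of lower coordinates, which was named after its values were seen, as was LPCAT2. One IRX6 probe was 3.15 ± 0.31 in KD1/CON, with an adjusted p of 0.00122. In WT/CON, the 2 tested IRX6 probes were 2.07 ± 0.52 and 2.63 ± 0.45, with adjusted p of 0.0120 and 0.00308. In KD1/WT they were 1.08 ± 0.20 and 1.06 ± 0.16 and did not pass, on the opposite side of 0 from MMP2. Another IRX6 probe, not tested in any comparison, was 0.65 in KD1/CON, 1.05 in KD1/WT and 0.46 in WT/CON.

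The probes of LPCAT2, an acyltransferase of phospholipid synthesis, lay 45.7 and 80.9 kb on the other side of MMP2. They were 1.07 ± 0.85 and 1.5 ± 0.63 in WT/CON and −0.92 ± 0.45 and −1.30 ± 0.20 in KD1/WT, the same sides as MMP2 on all 4 arrays. None of these passed, with adjusted p of 0.0530 to 0.200. In KD1/CON they were 0.23 ± 0.57 and 0.17 ± 0.61 with 2 arrays on each side, where MMP2 was 2.88. The nearest probe, 0.297 kb from that of MMP2 and without a gene symbol, was not tested in any comparison. It was 0.74 ± 0.19 in KD1/CON, −0.92 ± 1.04 in KD1/WT and 1.05 ± 0.28 in WT/CON, on the sides of MMP2 on all 4 arrays of each. The median over the tested probes of the window was 0.15, 0.03 and 0.24 in KD1/CON, KD1/WT and WT/CON.

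**Figure D3:**
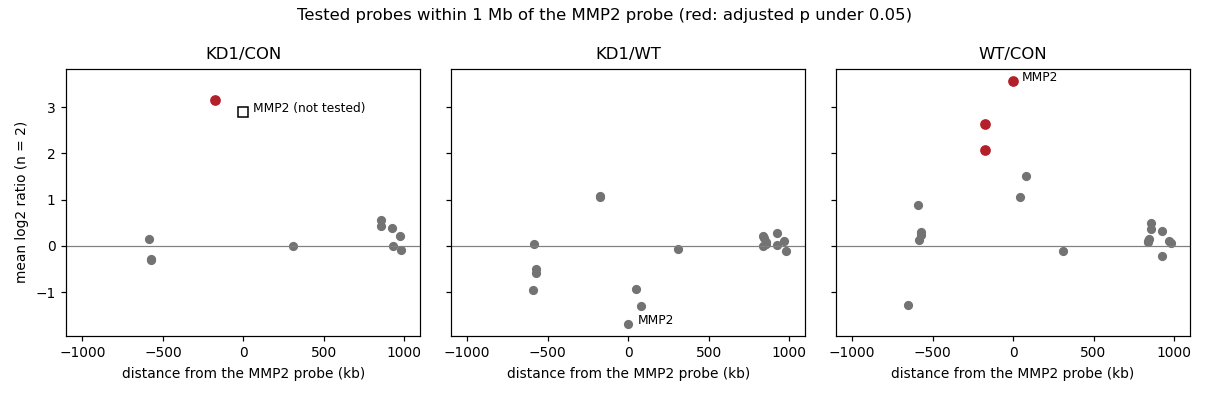
Mean log2 ratio of the tested probes within 1 Mb of the MMP2 probe, by distance from it in kb, in the 3 comparisons. Red points had an adjusted p under 0.05 and the open square is MMP2 where it was not tested. The red points besides MMP2 are IRX6 probes, and the points at 45.7 and 80.9 kb are LPCAT2.

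Among the other secreted enzymes, none passed the test. MMP1, the interstitial collagenase, stood well above background on 0 of 8 WT arrays, 2 CON arrays and 3 KD1 arrays, all of the latter in replicate 2, and was not tested in any comparison. Its processed signal was 5.79 to 12.7 in WT, 4.91 to 19.6 in CON and 6.21 to 27.9 in KD1. The KD1 signals of replicate 2, at 20.1 to 27.9, lay above all WT signals, while those of replicate 1, at 6.21 to 11.3, lay among them.

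MMP9, or gelatinase B, which cuts the same kinds of collagen as MMP2, was well above background on every array. Its signal was 91.8 to 172 in WT, 77.8 to 121 in CON and 75.6 to 159 in KD1, so that all cultures overlapped. The ratio was 0.05 ± 0.13 in KD1/CON, −0.15 ± 0.13 in KD1/WT and 0.20 ± 0.33 in WT/CON, with adjusted p of 0.948, 0.763 and 0.703 by limma. The replicates of KD1/WT gave −0.06 and −0.25. The 95% interval in KD1/CON ran from −0.43 to 0.52, so a change of 1 log2 unit in either direction lay outside it. Unlike MMP2, which is read with the same number of spots, MMP9 had direct and indirect ratios that differed by 0.050 and −0.044.

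MMP11, or stromelysin 3, had a signal of 48.1 to 95.6 in WT, 26.3 to 89.7 in CON and 70.8 to 152 in KD1. The CON signals of replicate 1 were 26.3 to 43.1 and those of replicate 2 were 71.7 to 89.7, with no overlap. In KD1/WT the replicate values were 0.53 and 0.95, with a mean of 0.74 ± 0.30, a 95% interval of −0.05 to 1.53 and an adjusted p of 0.317. In KD1/CON they were 1.29 and 0.46, with a mean of 0.87 ± 0.59, which was not tested because 1 of 4 arrays was below the limit. KD1 was thus higher on all 8 arrays it was read on. In WT/CON the replicates lay on opposite sides, at 0.96 and −0.57.

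**Figure D4:**
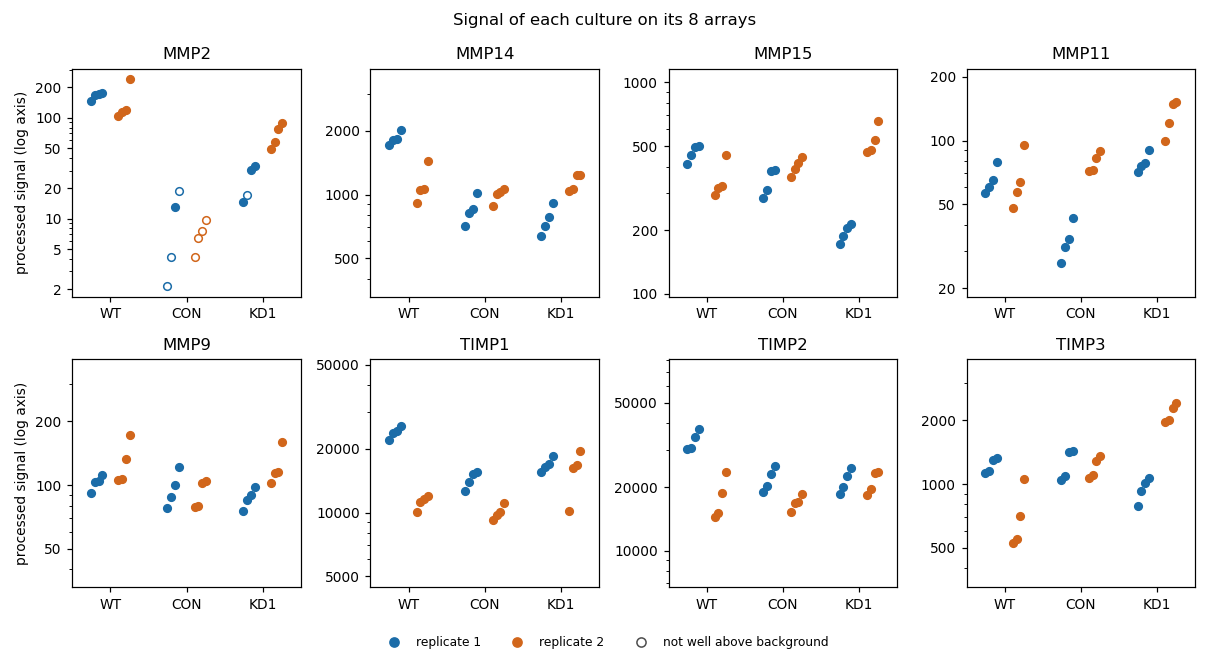
Processed signal of 8 of the genes in WT, CON and KD1 on a log axis, with 1 point for each of the 8 arrays of a culture, colored by replicate and open where the spot was not well above background. For MMP15 the brighter probe is shown. MMP2 separates WT from the clones, and the replicates of a culture form separate groups in many panels, such as TIMP1 in WT and TIMP3 in KD1.

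The membrane-type enzymes did not pass the test in any comparison either. MMP14, which activates MMP2 at the cell surface, had a signal of 908 to 2027 in WT, 708 to 1066 in CON and 639 to 1242 in KD1. In WT/CON it was 1.07 in replicate 1 and 0.05 in replicate 2, with a mean of 0.56 ± 0.72 and an adjusted p of 0.406. In KD1/WT it was −1.13 and 0.02, with a mean of −0.56 ± 0.81 and an adjusted p of 0.402. WT was therefore set apart in replicate 1 only, where its signal of 1721 to 2027 lay above every other reading. Between the clones the ratio was −0.06 ± 0.11, with a 95% interval of −0.75 to 0.64.

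MMP15, a second membrane-type enzyme, had its brighter probe at 293 to 498 in WT, 284 to 442 in CON and 172 to 656 in KD1. The KD1 signals of replicate 1 were 172 to 214, below all other readings, and those of replicate 2 were 470 to 656. The replicate values were −0.73 and 0.24 in KD1/CON and −1.05 and 0.54 in KD1/WT, so that the means of −0.24 ± 0.68 and −0.26 ± 1.12 stand for 2 replicates of opposite sign. In WT/CON they were 0.37 and −0.29. The dimmer probe, at 8.32 to 31.0 over all cultures, was not tested and gave −0.41 and −0.22 in KD1/CON and −1.49 and 0.19 in KD1/WT. Both probes were lower in KD1 in replicate 1, and they differed in sign in replicate 2 of KD1/CON.

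Of the inhibitors, TIMP1 was the one that, like MMP2, lay above CON on every array, although it did not pass the test. TIMP1 binds most secreted metalloproteinases, the precursor of MMP9 among them. Its signal was 9204 to 15535 in CON, 10003 to 25654 in WT and 10220 to 19523 in KD1. In KD1/CON the ratio was 0.39 and 0.30 on the arrays of replicate 1 and 0.69 and 0.60 on those of replicate 2. In WT/CON it was 0.62 and 0.76, and 0.29 and 0.30. The means of 0.49 ± 0.22 and 0.49 ± 0.28, both 1.41-fold, had 95% intervals of −0.06 to 1.05 and −0.08 to 1.06 and adjusted p of 0.345 and 0.368 by limma. Both comparisons use the CON extracts.

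TIMP1 in KD1/WT was −0.49 and −0.39 in replicate 1 and 0.96 and −0.18 in replicate 2, with a mean of −0.02 ± 0.59. The arrays of replicate 2, the pair with the low dye-swap correlation, thus disagreed in sign. The WT signal was 21952 to 25654 in replicate 1 and 10003 to 11980 in replicate 2, which is a wider gap than that between any of the culture means.

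TIMP2, the inhibitor that joins MMP14 in the activation of MMP2, had a signal of 14477 to 37503 in WT, 15170 to 25267 in CON and 18297 to 24517 in KD1. The ratio was 0.12 ± 0.14 in KD1/CON, −0.19 ± 0.58 in KD1/WT and 0.33 ± 0.36 in WT/CON, with adjusted p of 0.861, 0.748 and 0.559. The replicates of KD1/WT gave −0.60 and 0.22. The cultures overlapped, and in WT the signals of replicate 1, from 30131, lay above all those of replicate 2, up to 23681.

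TIMP3, which stays bound to the extracellular matrix, had a signal of 527 to 1335 in WT, 1045 to 1435 in CON and 785 to 2407 in KD1. Its ratio in WT/CON was −0.14 and −0.08 in replicate 1 and −0.96 and −1.07 in replicate 2, with a mean of −0.56 ± 0.64 and an adjusted p of 0.488. In KD1/WT it was −0.16 and −0.10 in replicate 1 and 1.19 and 1.70 in replicate 2, with a mean of 0.66 ± 1.12 and an adjusted p of 0.410. The dye-swap arrays of each replicate lay close together while the replicates did not. In KD1/CON the replicates had opposite signs, at −0.32 and 0.59.

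No array of any culture, 0 of 8 in each, had TIMP4 well above background, with a signal of 2.14 to 5.6. The sign of its ratio was that of the culture labeled with Cy5 on all 12 arrays, so no ratio is given.

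For several members the replicates of a culture lay apart. In WT, the signals of replicate 1 lay above those of replicate 2 without overlap for MMP14, TIMP1, TIMP2 and TIMP3, by 1.5-fold, 1.87-fold, 1.64-fold and 1.61-fold in the separate-channel values. In KD1, replicate 2 lay above replicate 1 without overlap for MMP1, MMP2, MMP11, MMP14, both MMP15 probes, TIMP3 and MMP9. In the separate-channel values this came to 2.54-fold for MMP2, 2.49-fold for the brighter MMP15 probe and 2.17-fold for TIMP3. The KD1 replicates were on different slides, so for KD1 replicate and slide cannot be told apart. In CON, replicate 1 lay above replicate 2 without overlap for TIMP1 and TIMP2, by 1.24-fold and 1.11-fold in the separate-channel values. For MMP11 and for MMP1, which was near background, replicate 2 lay above replicate 1 in CON without overlap, by 2.45-fold and 2.11-fold. How many of all probes had replicates apart in this way is not given here, so it does not set the family apart from other genes.

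The genes around the family were taken from lists written from general knowledge. Of 17 other MMPs, MMP17, MMP19, MMP25 and MMP28 had a probe well above background on all 24 readings, 9 were at background on every reading and 4 were in between. Of their 23 probes, 5, 6 and 8 were tested and 0 passed in any comparison, with 0, 0 and 1 at an unadjusted p under 0.05 by limma. The brightest MMP19 probe was −0.10 in KD1/CON, −0.51 in KD1/WT and 0.37 in WT/CON, and its other probes had means of the same sign in the WT comparisons. Of 24 ADAM and ADAMTS proteases, 19 to 21 had a tested brightest probe and 0 of their probes passed, with 11 of 30, 11 of 33 and 11 of 34 at an unadjusted p under 0.05, against the shares of 17.2%, 17.2% and 16.5% over all tested probes. Of 20 transcription factors known at MMP promoters, such as those of the AP-1, ETS and NF-kappaB families, 0 probes passed, with 5 of 34, 5 of 36 and 3 of 36 tested at an unadjusted p under 0.05.

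Among 24 activators, inhibitors and receptors of the protease system, 0 of 28 tested probes were higher and 1 lower in KD1/CON, where 0.775% and 1.02% of all tested probes were, and 10 had an unadjusted p under 0.05 by limma, beside the 17.2% of all tested probes. In KD1/WT 0 of 30 passed, where 1.05% of all tested probes did, with 16 at an unadjusted p under 0.05, and in WT/CON 1 of 30 was higher, where 0.778% were, with 9 at an unadjusted p under 0.05. A probe of ITGB3, the beta chain of the vitronectin receptor, fell in KD1/CON by 1.85 on the log2 scale, with an adjusted p of 0.0449. The brightest ITGB3 probe was −1.73 ± 0.88 there, with an adjusted p of 0.0589. All 3 ITGB3 probes lay between −2.06 and −2.01 in KD1/WT, with adjusted p of 0.0503 to 0.0558. ITGAV, its alpha chain, was higher in WT/CON by 1.51 ± 0.59, with an adjusted p of 0.0436, and was 0.61 and −0.90 in KD1/CON and KD1/WT without passing.

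RECK, a membrane-anchored inhibitor of MMP2, MMP9 and MMP14, had 2 tested probes that disagreed. The brighter was −1.03 ± 0.14 in KD1/CON and −1.07 ± 0.36 in KD1/WT, with adjusted p of 0.0848 and 0.0966, and the other was −0.01 and 0.19. PLAU, the urokinase-type plasminogen activator, was 0.06 ± 0.60, −0.08 ± 0.61 and 0.16 ± 0.05 in KD1/CON, KD1/WT and WT/CON. Its receptor PLAUR was 0.10 ± 0.35, −0.33 ± 0.63 and 0.46 ± 0.34. For both genes the replicates had opposite signs in KD1/CON and in KD1/WT, so these means do not show a lack of change. BSG, an inducer of MMP expression also called EMMPRIN, was −0.04 ± 0.16, −0.30 ± 0.32 and 0.20 ± 0.50. None of these 3 genes passed. The ratios farthest from 0 in this list were those of A2M, a general protease inhibitor of plasma, at 2.91 in KD1/WT and −3.25 in WT/CON. It was named after its values were seen, and its adjusted p were 0.148 and 0.108.

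**Figure D5:**
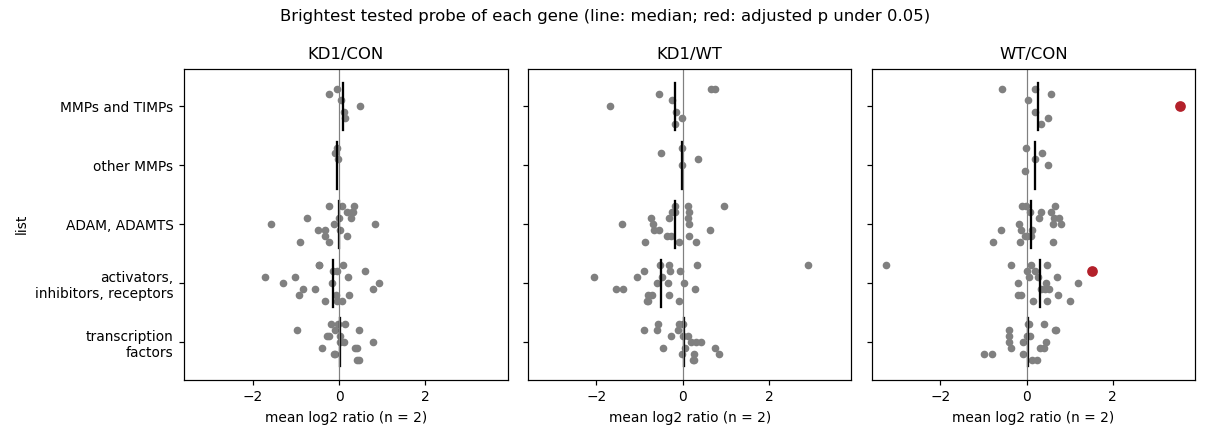
Mean log2 ratio over the 2 replicates of the brightest probe of each gene, where tested, for the MMPs and TIMPs and the 4 lists of related genes, in the 3 comparisons. Lines are list medians and red points had an adjusted p under 0.05. The red points are MMP2 and ITGAV in WT/CON.

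Markers of other cell types that can make these enzymes were read in the same arrays. Of 8 fibroblast markers, 3 were well above background on all 8 arrays of each culture, and LUM, FAP and PDGFRA were on none. Their summed signal was 7034 to 19667 in WT, 5605 to 12304 in CON and 7643 to 9824 in KD1, so the cultures overlapped. Of 6 epithelial markers, 4, 3 and 4 were well above background on all 8 arrays of WT, CON and KD1. Their summed signal was 2572 to 4424 in WT, 1478 to 2072 in CON and 1696 to 3099 in KD1, so that WT lay above CON without overlap. Of 6 endothelial markers, 3, 4 and 4 were well above background on all 8 arrays, and KDR on none, with sums of 1037 to 1617 in WT, 2310 to 3086 in CON and 1493 to 4888 in KD1. Of 8 leukocyte markers, 5 were well above background on all 8 arrays of each culture, and PTPRC on none, with sums of 1273 to 2129, 822 to 1736 and 1276 to 2768. The endothelial sum was thus lower in WT than in CON, and the leukocyte sums overlapped. The part of these cell types in the MMP2 ratio was not tested.

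Some of the epithelial markers set WT replicate 2 apart, while KRT8 and the brightest KRT18 probe did not. In WT/CON, EPCAM was 0.24 in replicate 1 and 5.43 in replicate 2, KRT19 was 0.011 and 3.0, and CDH1 was 0.10 and 2.21. CLDN4 was 2.12 and 1.65 in the same replicates, and MMP2 was 3.46 and 3.68. EPCAM was well above background on 4 of 8 WT arrays and on 0 of 8 in either clone. EPCAM, KRT19 and CDH1 were named after their values were seen, and their part in the MMP2 ratio was not tested. Of the epithelial marker probes, CLDN4 alone passed, rising in KD1/CON by 2.26 ± 0.25 and being higher in WT/CON by 1.89 ± 0.33, with adjusted p of 0.0166 and 0.0380. Of the fibroblast marker probes 0 passed in any comparison, with 0, 1 and 3 of 5 at an unadjusted p under 0.05 by limma. Of the endothelial ones also 0 passed, with 0 of 3, 3 of 4 and 3 of 5, and of the epithelial ones 1 of 4, 3 of 5 and 4 of 6 had an unadjusted p under 0.05, beside the 17.2%, 17.2% and 16.5% given above. Of the leukocyte markers, CD68, a lysosomal protein of macrophages and other cells, rose in KD1/CON by 1.54 ± 0.34, with an adjusted p of 0.0221. Of the muscle markers, both probes of MYOG, the myogenic factor myogenin, were lower in WT than in CON, at −1.73 ± 0.33 and −1.81 ± 0.45. Their adjusted p were 0.0185 and 0.0176 by limma, where 0.594% of all tested probes were called lower. In KD1/CON the MYOG probes were −1.14 ± 0.30 and −1.15 ± 0.25, with adjusted p of 0.0508 and 0.0529. In KD1/WT they were 0.60 and 0.61 and did not pass.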

How the data were processed

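Total RNA of 3 Rh30 cultures was hybridized to 12 Agilent arrays. The authors extracted spots with Agilent Feature Extraction (version 10.5.1.1 in the submitters' processing notes) and deposited linear intensity values for each spot: mean, local background, background-subtracted and lowess-normalized processed signals. They also deposited a log10 ratio of Cy5 over Cy3, and a series table that holds this ratio on the log2 scale, centered at a median of 0 per array. Here log2 ratios of processed intensities were turned to the first culture and averaged over spots without outlier flags (95 to 188 flagged per array, 0 saturated) and over each dye-swap pair. The 6 replicate values entered 1 fit of limma 3.58.1 in R 4.3.3, with 1 coefficient for each comparison. The fit's own 3 residual degrees of freedom were replaced by 2, since only 3 extracts underlie the 3 comparisons of a replicate, and all p-values and intervals rest on this. Benjamini-Hochberg adjustment ran over the 21937 to 26595 probes tested. In 20 simulations of KD1/CON data, 200 of 21937 probes were changed by 2 on the log2 scale. The fit recovered 99.8% with 22.3 false calls on average. Beside at most 200 true calls, this is a larger false share than the threshold of 0.05 aims at. Measured ratios of about this size or larger did not always pass. The brightest ITGB3 probe, at −2.06 in KD1/WT, had an adjusted p of 0.0514 by limma. A2M, at −3.25 in WT/CON, had 0.108, while CLDN4, at 2.26 in KD1/CON, passed with 0.0166. The simulated recovery is therefore not taken as the power of the test in the measured data. Only 2 replicates per comparison limit the precision, and p-values measure the spread between these extracts of 1 clone each.

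A gene's probe was the one with the highest mean signal. Every member was named with all its probes. From the other lists, genes with a probe that passed the test were named, up to 8 a list, and RECK, BSG, PLAU and PLAUR whatever their values. One gene of these lists is not reported here. The members and lists were chosen with earlier results of these data known. Of the member probes' 11 RefSeq accessions, 11 were matched to current gene names. Alternatives were other background corrections, normalizations, filters and designs, the series table, and each replicate left out. Promoter sequences were not used. Python 3.11.15 with numpy 2.4.6, pandas 2.3.3 and matplotlib 3.10.9 made the tables and plots.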

Additional observations from a re-analysis of the deposited data

How the results depend on the processing

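Of 250 recomputed member ratios, 227 kept their direction and their side of the threshold, 4 fell short of it, 1 passed it and 18, of 13 ratios, turned their direction. The turned ratios were at most 0.66 in size. Per member and comparison, leaving out 1 replicate at a time gave −0.046 to 0.14 for MMP9, −0.14 to 0.026 for MMP14, −0.73 to 0.24 for MMP15 and −0.32 to 0.59 for TIMP3 in KD1/CON. In KD1/WT it gave −1.13 to 0.017 for MMP14, −1.05 to 0.54 for MMP15, −0.44 to 0.39 for TIMP1, −0.60 to 0.22 for TIMP2 and −0.13 to 1.45 for TIMP3, and in WT/CON −0.040 to 0.43 for MMP9, −0.57 to 0.96 for MMP11 and −0.29 to 0.37 for MMP15.

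With signals floored at each channel's limit and median centering, which moved the median of all tested probes to −0.24 in KD1/CON and −0.18 in WT/CON, MMP9 was −0.050, TIMP2 −0.10 and TIMP3 −0.12 in KD1/CON, TIMP1 0.14 in KD1/WT and MMP15 −0.13 in WT/CON. With a common floor, chosen after seeing the data, TIMP1 was 0.080 in KD1/WT. MMP2 kept its direction in every alternative that gave a value. In KD1/WT it was the 1 member probe to pass with the floored signals. In WT/CON 0 member probes passed with normexp and loess, with the common floor, without either replicate, and with the filter on probes well above background in both channels of every array, which removed MMP2. In KD1/CON 1 member probe, MMP2, passed without a filter.

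The counts over all probes depended more on the processing. In KD1/CON, KD1/WT and WT/CON, 393, 261 and 365 passed, beside 26, 1 and 2 with normexp and loess, 1015, 959 and 1025 with floored signals, 104, 99 and 110 with the common floor, 254, 183 and 200 without a filter, and 1013, 1018 and 1093 with slide and dye effects over 12 arrays. Leaving out a replicate gave 9 to 16, 38 to 59 and 0 to 1. The calls were 170 higher and 223 lower in KD1/CON, 71 and 190 in KD1/WT and 207 and 158 in WT/CON. With the floored signals they were 240 and 775, 453 and 506, and 399 and 626, and with the common floor 33 and 71, 14 and 85, and 78 and 32. With normexp and loess they were 9 and 17 in KD1/CON.

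The replicate block is part of the ratios, since both channels of an array came from the same replicate number. Without the replicate block, with separate channels per extract, 202, 126 and 114 probes passed, and with extract values by least squares and the replicate block 161, 107 and 131. MMP2 in WT/CON was 4.39 and 3.9 in these fits, with adjusted p of 0.0129 and 0.0169, and no member call changed. Extracts of the same number deviated together with a correlation of 0.541 between CON and KD1, −0.0211 between CON and WT and −0.0717 between KD1 and WT. The ratios of the main fit pair extracts of the same number all the same, and what the clones shared by number was not tested. By the study's selection, the number of members selected for WT and for CON changed when 1 replicate was left out. The share of all probes selected in that way is not given here, and the cause of these changes was not tested. Signals near background limit MMP1, MMP2 in CON, the dimmer MMP15 probe and TIMP4.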
